A study of Mus musculus with 10 samples.

Results

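The genes of the translation initiation and elongation factors were examined in the livers of TG221 mice, which carry a miR-221 transgene. Members were all genes whose RefSeq mouse symbol starts with Eif or Eef followed by a digit. There were 69 such genes, read by 97 probes, among 21613 genes named on the array. They comprise the initiation factors, the elongation factors, and the kinases, binding proteins and methyltransferases that carry the same symbols.

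RNA from 10 mouse livers was hybridised to Agilent 1-colour expression arrays, 1 array per mouse. Of these mice, 6 received metformin together with carbon tetrachloride (CCl4), and the other 4 received CCl4 without metformin. Every animal was a male TG221 mouse on the B6D2F2 background, aged 4 to 6 weeks at the start. All of them were given 20% CCl4 in olive oil by gavage, 3 times a week for 14 weeks, a hepatotoxic solvent that causes chronic injury and scarring. Metformin, a biguanide used against diabetes, was given daily by mouth at 300 mg/kg beginning 3 weeks into the CCl4 course, and the livers were collected at 24 weeks. No mouse without the transgene and no mouse without CCl4 was analysed here, and the promoter of the transgene is not given in the sources used here. The labels give the tissue as liver and the cell type as hepatocellular carcinoma. All 6 hepatocyte markers examined (Alb, Apoa1, Ttr, Trf, Apob and Hnf4a) were above background in both groups.

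Levels are given as the log2 of the background-subtracted signal minus the 75th percentile of that array, so 0 marks the 75th percentile and 1 unit is a doubling. Differences are metformin plus CCl4 minus CCl4. They were tested with limma, a linear model fitted over all 48630 features, with Benjamini-Hochberg adjusted p-values and a threshold of 0.05, and a member past it is called higher or lower. The mice of each group shared 1 slide and 1 scan day of their own, so slide, scan day and metformin cannot be told apart. In whole liver RNA, fewer cells of a type and less RNA per cell cannot be told apart.

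Initiation of translation begins when the eIF2 complex brings the initiator tRNA to the small ribosomal subunit, together with eIF1, eIF1A, eIF3 and eIF5, while the eIF4 factors recruit the capped mRNA. The eIF2B complex recharges eIF2 with GTP and is blocked when stress kinases phosphorylate eIF2, and the eIF4E-binding proteins block cap binding unless mTORC1 phosphorylates them. In elongation, eEF1A delivers aminoacyl-tRNA, the other eEF1 subunits recharge it, and eEF2 moves the ribosome along. Many mRNAs for these proteins start with a run of pyrimidines, the feature through which mTORC1 controls their translation, and metformin is known to lower mTORC1 activity in liver cells.

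The start sites were therefore read from the RefSeq promoter table (GRCm38.p6), which held 54 of the 69 members. A pyrimidine tract, counted as a C followed by at least 4 further C or T on the transcribed strand and found between 3 bases before and 8 bases after an annotated start, was present in 11 of the 54 members (20.4%), against 13.5% of 27025 genes. Of these 11 members, 2 were called higher, 2 lower and 7 neither. The 4 called ones are shown with Eif2s3x, the partner of Eif2s3y, and with Eef1a1. Each window holds 15 bases on either side of the annotated start, 5′ to 3′ on the transcribed strand. Capitals mark the tract, extended within the window to its whole run of C and T from the first C. They can therefore begin before the searched bases, at -15 for Eif2b5 and at -5 for Eif3l and Eef1a1. Bases before the annotated start are not part of the annotated mRNA. The starts used in these livers were not measured, so a marked run need not be the beginning of the mRNA.
Eif3l (chr15:79075208-79075237, plus strand, higher): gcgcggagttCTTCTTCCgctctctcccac
Eif2s3y (chrY:1010580-1010609, plus strand, higher): gcggaggccacagccaCTTCCTTCTTTCgt
Eif3b (chr5:140419290-140419319, plus strand, lower): ctagcggcgcgcggtgaCTTCTgggagtcg
Eif2b5 (chr16:20498802-20498831, plus strand, lower): CCTTCCTCTTTCTCTCCCTgcaactacacc
Eif2s3x (chrX:94212637-94212666, minus strand, not called): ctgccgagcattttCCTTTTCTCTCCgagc
Eef1a1 (chr9:78481710-78481739, minus strand, not called): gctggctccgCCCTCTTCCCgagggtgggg
The 11 members with a tract had a median log2 change of -0.03, with a range of -0.68 to 0.56, against a median of 0.06 in the 43 without one. In RNA level, members with a tract at an annotated start moved in both directions. Both the share and this split rest on annotated starts and may miss or misplace tracts. The arrays do not measure translation, so control of translation through the tract was not tested.

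The letters CACGTG, the E-box that MYC and USF proteins recognise, were searched in the 250 bases before and 50 bases after the start. This motif reads the same on both strands. It stood in 14 of the 54 members (25.9%), against 8.09% of the 27025 genes. Of the 14, 2 were called higher (Eif1b and Eif3k), 1 lower (Eif5a) and 11 neither. Their median log2 change was 0.04, against 0.03 in the members without the letters. For the called members and for Eif5a2, the paralogue of Eif5a, 1 window each is shown on the transcribed strand, with the motif in capitals. Eif5a and Eif5a2 each hold a second one that is not shown.
Eif5a (chr11:69921443-69921472, minus strand, lower): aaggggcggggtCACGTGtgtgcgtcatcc
Eif1b (chr9:120492570-120492599, plus strand, higher): cgtgcggacggtCACGTGgcggcggcgcgc
Eif3k (chr7:28981915-28981944, minus strand, higher): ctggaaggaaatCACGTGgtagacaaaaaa
Eif5a2 (chr3:28781148-28781177, plus strand, not called): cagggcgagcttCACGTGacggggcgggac
The element TGATGNAAT, sought on both strands, was found in 0 of the 54 windows and in 1.08% of the genes. These matches describe the windows only, since binding was not measured.

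Of the 69 members, 67 were well above background on all 10 arrays. Eef1a2 and Eif4e1b were above it on none, and no fold is given for them. With metformin, 12 members were called higher, 10 lower, and 47 passed the threshold in neither direction. The 22 called members are 31.9% of the 69, against 20.3% of all features, which include many dim probes, and 12.7% and 7.61% of all features were called higher and lower. Among the 67 bright members 32.8% were called (17.9% higher and 14.9% lower), against 35.4% of the 25168 features well above background (22.2% higher and 13.2% lower). The share of called members was therefore close to that of bright features, which include unnamed probes. Groups by role hold few genes each, and their counts below were not tested against these shares. The groups did not overlap for 27 members, 13 higher and 14 lower with metformin, and for 32.7% of the bright features. The median change of the members was 0.02 on the log2 scale, against 0.11 for the bright features and 0.03 for all features. Changes were modest in size. They ran from -0.93 for Eif5a to 0.72 for Eif3j2, and the median SD between mice was 0.13 with metformin and 0.11 with CCl4 for the members. For the bright features that median SD was larger, 0.24 with metformin and 0.23 with CCl4.

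**Figure D1:**
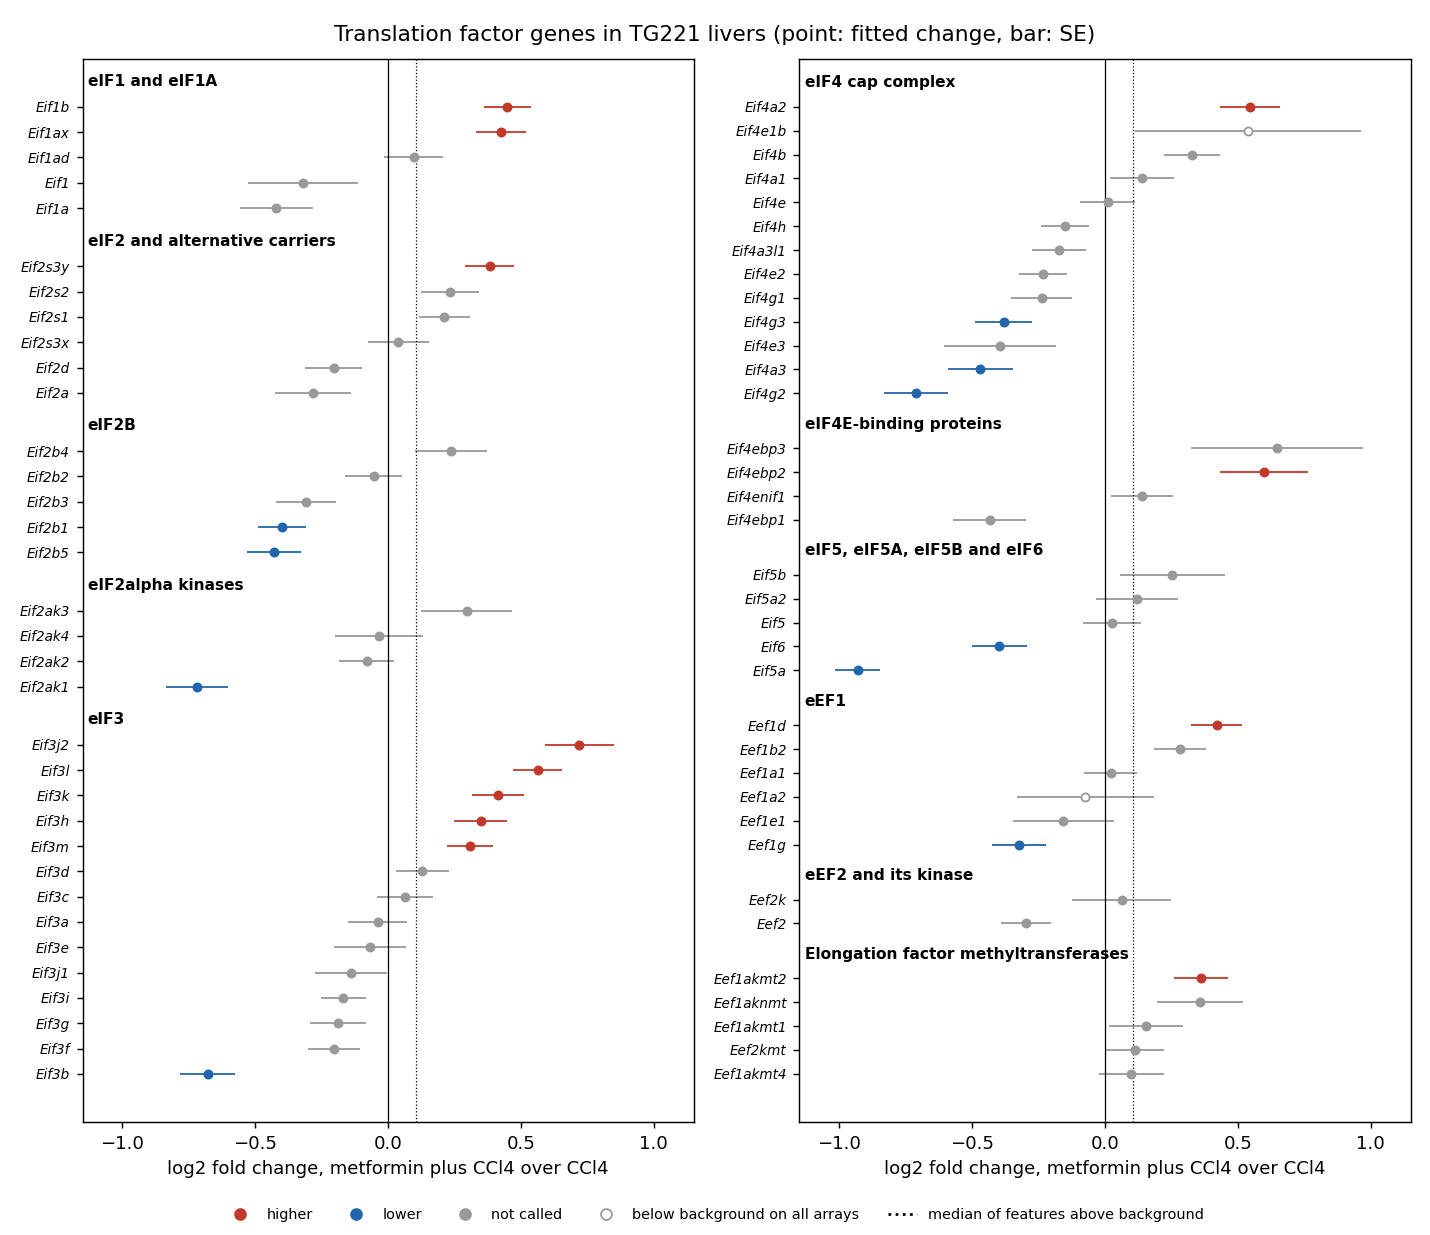
Fitted log2 change of all 69 members, metformin plus CCl4 over CCl4, by role (point, with SE as the bar). Red points were called higher, blue points lower, grey points neither, and open points mark the 2 genes below background on all arrays. The dotted line is the median of features above background, 0.11. Called members of both directions are seen within the eIF3, eIF4 and eEF1 groups.

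Leaving out 1 mouse at a time gave 14 to 23 called members. The lowest count came without CCl4 mouse 2, and all 14 were among the 22. Within slide row 1, which held metformin mice 1 and 2 and all 4 CCl4 mice, 3 members passed (Eif5a, Eif3b and Eif2ak1), and all 22 kept their direction. With slide row as a term in the fit 15 members passed, 14 of them among the 22, and the calls of Eif3k, Eif4a3, Eif4ebp2, Eef1d, Eif3h, Eif3m, Eef1g and Eef1akmt2 were lost. Quantile normalization gave 32 called members, 11 higher and 21 lower, without Eif4ebp2. The share of all features called on that scale is not given here, so this count cannot be set against it. Median scaling ended the calls of Eif2s3y, Eif3h, Eif3m, Eef1g and Eef1akmt2, and normexp background correction those of Eif6, Eif3m and Eef1g. The mean of a gene's probes ended those of Eif4a2, Eif3h and Eef1g.

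The scale itself was not neutral. The 75th percentile of the signal was 237 to 363 with metformin plus CCl4 and 238 to 338 with CCl4, whereas the mean log2 signal of 8 probes for spike-in control transcripts was 12.0 to 12.3 with metformin plus CCl4 and 11.4 to 12.1 with CCl4. With arrays scaled to the spike-ins, every log2 change moved by -0.56, and the median of all features moved to -0.53. On that scale limma called 40 members, 40 lower and 0 higher (0 higher at an unadjusted p under 0.05), against 50.3% of all features, with 2.66% of them higher. All 10 members called lower passed the test as lower. A shift of -0.56 can only move such members further below 0, so this is no check of their falls. Of the 12 called higher, 3 kept a value above 0 (Eif3j2, Eif4ebp2 and Eif3l), and 9 had values below 0 that did not pass the test. "Higher" below therefore means higher relative to the 75th percentile of the array.

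**Figure D2:**
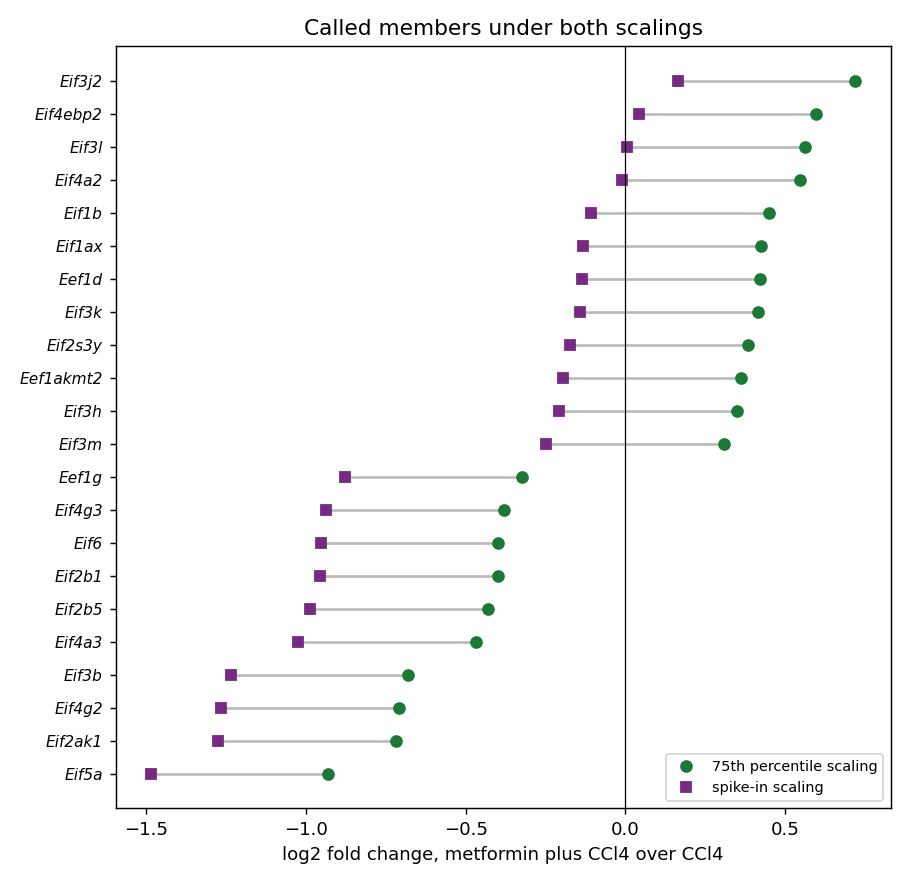
Log2 change of the 22 called members, metformin plus CCl4 over CCl4, with arrays scaled to their 75th percentile (circles) or to the spike-in probes (squares). With the spike-ins every change moves down, so the 10 members called lower had to stay below 0. Of the 12 called higher, 9 move below 0.

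Among the small factors that select the start codon, Eif1b and Eif1ax were higher with metformin while Eif1 and Eif1a were not called. Eif1b encodes a close relative of eIF1, and Eif1ax is the X-linked copy of the eIF1A gene. Eif1b had a lowest level of 3.14, a median of 3.22 and a highest of 3.30 with metformin plus CCl4, against 2.65, 2.76, 2.83 and 2.84 with CCl4. The groups were well separated. Its log2 change was 0.45 ± 0.09 (SE), or 1.37-fold, with adjusted p = 0.0056 (limma). Eif1ax ran from 3.29 through a median of 3.37 to 3.40 with metformin, against 3.04, 2.78, 2.89 and 3.03 with CCl4, and the groups were apart again. It changed by 0.42 ± 0.09 (limma adjusted p = 0.0098). Eif1a was below its CCl4 levels in all metformin mice, with a log2 change of -0.42 and limma adjusted p = 0.057. Eif1, with -0.32 ± 0.21, varied widely among CCl4 mice, and its second probe gave 0.17. Eif1ad, a small-subunit maturation factor in human cells, had a change of 0.10, but its second probe gave 0.54 with limma adjusted p = 0.0075, so the probes disagree.

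The eIF2 complex was called for 1 of its subunit genes. Eif2s3y, the Y-linked copy of the gamma subunit gene, had levels of 3.26 at the lowest, 3.41 at the median and 3.52 at the highest with metformin plus CCl4, against 2.98, 2.97, 3.06 and 3.06 with CCl4. All metformin mice were above all CCl4 mice. The log2 change was 0.38 ± 0.09 (limma adjusted p = 0.015), and with median scaling it was 0.32 and not called (adjusted p = 0.12). Its X-linked partner Eif2s3x had a change of 0.04 ± 0.12 and overlapped between the groups. A second Eif2s3x probe gave -0.49, which did not pass the threshold. Eif2s1 encodes the alpha subunit, whose phosphorylation lowers initiation. It ran from 3.23 through 3.46 to 3.50 with metformin, against 3.22, 3.13, 3.29 and 3.17 with CCl4. These levels overlapped, and the change of 0.21 had limma adjusted p = 0.17. Eif2s2, the beta subunit gene, had 0.23, but its second probe gave -0.23. Eif2a and Eif2d, which can deliver initiator tRNA without eIF2, had -0.28 and -0.20 and were not called.

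In the exchange factor eIF2B, 2 of 5 subunit genes were lower with metformin, beside 13.2% of the bright features. Eif2b5, the catalytic epsilon subunit gene, had levels of 1.40 at the lowest, 1.46 at the median and 1.71 at the highest with metformin plus CCl4, against 1.91, 2.06, 1.81 and 1.91 with CCl4. Metformin mouse 6 stood above the other metformin mice, yet below every CCl4 mouse. The log2 change was -0.43 ± 0.10 (limma adjusted p = 0.013). Eif2b1, the regulatory alpha subunit gene, ran from 2.69 through 2.74 to 2.87 with metformin, against 3.20, 3.23, 3.14 and 3.04 with CCl4. Its groups were apart too, with a change of -0.40 ± 0.09 (limma adjusted p = 0.011). Eif2b3, the gamma subunit gene, had -0.31 with limma adjusted p = 0.084, and its second probe had -0.39 with adjusted p = 0.042. Eif2b2 and Eif2b4, the beta and delta genes, had -0.05 and 0.24.

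Of the 4 genes for eIF2 kinases, Eif2ak1 was lower with metformin and the others were not called. Eif2ak1 encodes HRI, a kinase switched on by lack of heme and abundant in red cell precursors. Its levels were 0.61 at the lowest, 0.91 at the median and 1.06 at the highest with metformin plus CCl4, against 1.49, 1.67, 1.60 and 1.58 with CCl4. No metformin mouse came near the CCl4 mice. The log2 change was -0.72 ± 0.12, or 1.65-fold lower (limma adjusted p = 0.0019), and it was -0.74 within slide row 1. The erythroid markers Hba-a1, Hbb-bt and Alas2 were lower as well, with log2 changes of -0.995, -0.77 and -0.66. Hba-a1 ran from 6.39 to 7.35 with metformin plus CCl4 and from 7.56 to 8.45 with CCl4, Hbb-bt from 4.84 to 5.80 with metformin plus CCl4 and from 5.93 to 6.64 with CCl4, and Alas2 from 5.02 to 5.47 with metformin plus CCl4 and from 5.78 to 6.07 with CCl4. None of these ranges overlapped between the groups. Their part in the Eif2ak1 difference was not tested.

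The kinase for double-stranded RNA (PKR), Eif2ak2, had levels of -0.82 at the lowest, -0.68 at the median and -0.45 at the highest with metformin plus CCl4, against -0.54, -0.57, -0.71 and -0.51 with CCl4. Its groups overlapped, and the change was -0.08 with a 95% interval of -0.31 to 0.15. Eif2ak3, the endoplasmic reticulum kinase PERK, ran from 0.79 through 0.90 to 1.18 with metformin, against 0.12, 0.90, 0.96 and 0.62 with CCl4. Here CCl4 mouse 1 was far below the rest, and the change of 0.30 had limma adjusted p = 0.29. Eif2ak4, the amino acid sensor GCN2, ran from 1.08 through 1.19 to 1.41 with metformin, against 1.54, 1.25, 1.51 and 0.72 with CCl4. The CCl4 mice spread more widely than the metformin mice, and the change was -0.03 ± 0.17.

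The eIF3 scaffold, with 14 genes, held 5 called higher, 1 called lower and 8 called neither. Of the bright features, 22.2% were called higher and 13.2% lower. The eIF3 genes called higher were Eif3j2, Eif3l, Eif3k, Eif3h and Eif3m. The lower one was Eif3b, a core subunit needed to assemble the complex. Eif3b had levels of 2.25 at the lowest, 2.35 at the median and 2.58 at the highest with metformin plus CCl4, against 3.07, 3.19, 3.03 and 2.95 with CCl4. The highest metformin mouse stayed below every CCl4 mouse. The log2 change was -0.68 ± 0.10, or 1.60-fold lower (limma adjusted p = 0.0013). Neither the fit on slide row 1 (-0.74) nor any other alternative removed this call.

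Eif3j2, 1 of a pair of mouse genes for the loosely bound j subunit, had levels of 1.53 at the lowest, 1.76 at the median and 2.03 at the highest with metformin plus CCl4, against 1.32, 1.02, 0.95 and 0.89 with CCl4. The groups did not overlap, and its rise was the largest of the 69. It changed by 0.72 ± 0.13, or 1.65-fold (limma adjusted p = 0.0032), but by 0.16 with spike-in scaling. Eif3l ran from 5.80 through 5.92 to 6.07 with metformin, against 5.37, 5.36, 5.33 and 5.37 with CCl4. The 4 CCl4 mice were almost level and the metformin mice all stood above them. The change was 0.56 ± 0.09 (limma adjusted p = 0.0020) and 0.01 with spike-in scaling. Eif3k, which pairs with the l subunit at the edge of the complex, ran from 5.84 through 5.99 to 6.14 with metformin, against 5.63, 5.66, 5.54 and 5.53 with CCl4. It too was apart, with 0.41 ± 0.10 (limma adjusted p = 0.013), and its 2 further probes gave 0.39 and 0.45.

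Eif3h and Eif3m were nearer the threshold, with changes of 0.35 and 0.31 and limma adjusted p of 0.033 and 0.029. Each lost its call without any 1 of several mice, with adjusted p up to 0.094 for Eif3h, without CCl4 mouse 4, and up to 0.076 for Eif3m, without CCl4 mouse 1. The second Eif3h probe gave 0.05, and the second Eif3m probe gave 0.24 (limma adjusted p = 0.090). Among the 8 uncalled subunits (a, c, d, e, f, g, i and j1), changes ran from -0.20 for Eif3f to 0.13 for Eif3d. Eif3c was among them with 0.06, whereas its second probe gave 0.79 with limma adjusted p = 0.010, so the probes of this gene disagree.

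In the cap-binding group, Eif4a2 was higher with metformin, and Eif4g2, Eif4a3 and Eif4g3 were lower. The cap-binding gene Eif4e was not called. Eif4g2 encodes DAP5, a relative of eIF4G that lacks the eIF4E-binding region. Its levels were 3.24 at the lowest, 3.50 at the median and 3.75 at the highest with metformin plus CCl4, against 4.10, 4.22, 4.30 and 4.17 with CCl4. All metformin mice were below all CCl4 mice. The log2 change was -0.71 ± 0.12, or 1.64-fold lower (limma adjusted p = 0.0023). Eif4g3, another scaffold gene, changed by -0.38 (limma adjusted p = 0.030). Its call was lost without any 1 of 5 mice, with limma adjusted p up to 0.081 without CCl4 mouse 4. The second Eif4g3 probe gave -0.55 (limma adjusted p = 0.037). Eif4g1, the main scaffold gene, ran from 5.51 through 5.70 to 5.88 with metformin, against 5.87, 6.11, 5.87 and 5.89 with CCl4. The ranges met at their edges, and the change of -0.24 was not called (limma adjusted p = 0.19), though quantile normalization gave -0.37 with adjusted p = 0.0044.

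Among the RNA helicases, Eif4a2 had levels of 5.67 at the lowest, 5.85 at the median and 6.02 at the highest with metformin plus CCl4, against 5.17, 5.28, 5.44 and 5.30 with CCl4. The groups did not overlap, and the change was 0.55 ± 0.11, or 1.46-fold (limma adjusted p = 0.0063). Its second probe, annotated to another transcript, gave 0.08, and the mean of both probes was not called (limma adjusted p = 0.12). Eif4a1, the main helicase gene, ran from 6.03 through 6.15 to 6.35 with metformin, against 6.32, 5.98, 5.89 and 5.91 with CCl4. CCl4 mouse 1 lay among the metformin mice, and the change was 0.14 ± 0.12. Eif4a3 encodes a core protein of the exon junction complex. It ran from 1.32 through 1.60 to 1.83 with metformin, against 2.04, 2.13, 1.98 and 2.03 with CCl4. It was lower in every metformin mouse, with a change of -0.47 ± 0.12 (limma adjusted p = 0.021). The call was lost without CCl4 mouse 1 (adjusted p = 0.051) or CCl4 mouse 2 (adjusted p = 0.065).

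Eif4e had levels of 2.06 at the lowest, 2.18 at the median and 2.28 at the highest with metformin plus CCl4, against 2.22, 2.23, 2.26 and 1.97 with CCl4. The groups overlapped almost fully, and the change was 0.01 with a 95% interval of -0.22 to 0.24. It was -0.55 with spike-in scaling. The helicase helper Eif4b had 0.33 with limma adjusted p = 0.054, and its 2 further probes gave -0.41 and 0.36, in opposite directions. Eif4h, Eif4e2, Eif4e3 and Eif4a3l1 had changes of -0.40 to -0.15 and were not called. Eif4e1b, known from oocytes, was below background in all mice.

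Of the 4 genes for proteins that bind eIF4E, Eif4ebp2 was called higher and the other 3 were not called. Eif4ebp1 ran from 5.16 through 5.37 to 5.62 with metformin plus CCl4, against 5.88, 6.04, 5.84 and 5.52 with CCl4. CCl4 mouse 4 alone lay within the metformin range. The change of -0.43 ± 0.14 missed the threshold (limma adjusted p = 0.0504), and it passed without CCl4 mouse 4 (adjusted p = 0.026) and without metformin mouse 2 (adjusted p = 0.037). Eif4ebp2 ran from 3.96 through 4.36 to 4.55 with metformin, against 3.93, 3.70, 3.33 and 3.98 with CCl4. The groups overlapped by 1 mouse on either side. Its change was 0.60 ± 0.17 (limma adjusted p = 0.028), and the call was lost without any 1 of 5 mice, with adjusted p up to 0.083 without CCl4 mouse 3. Eif4ebp3 ran from 3.96 through 4.71 to 5.48 with metformin, against 3.95, 4.17, 4.58 and 3.39 with CCl4. It had the widest spread of the binding proteins, and its change of 0.65 ± 0.32 was not called (limma adjusted p = 0.21). Eif4enif1, the carrier 4E-T, had 0.14.

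**Figure D3:**
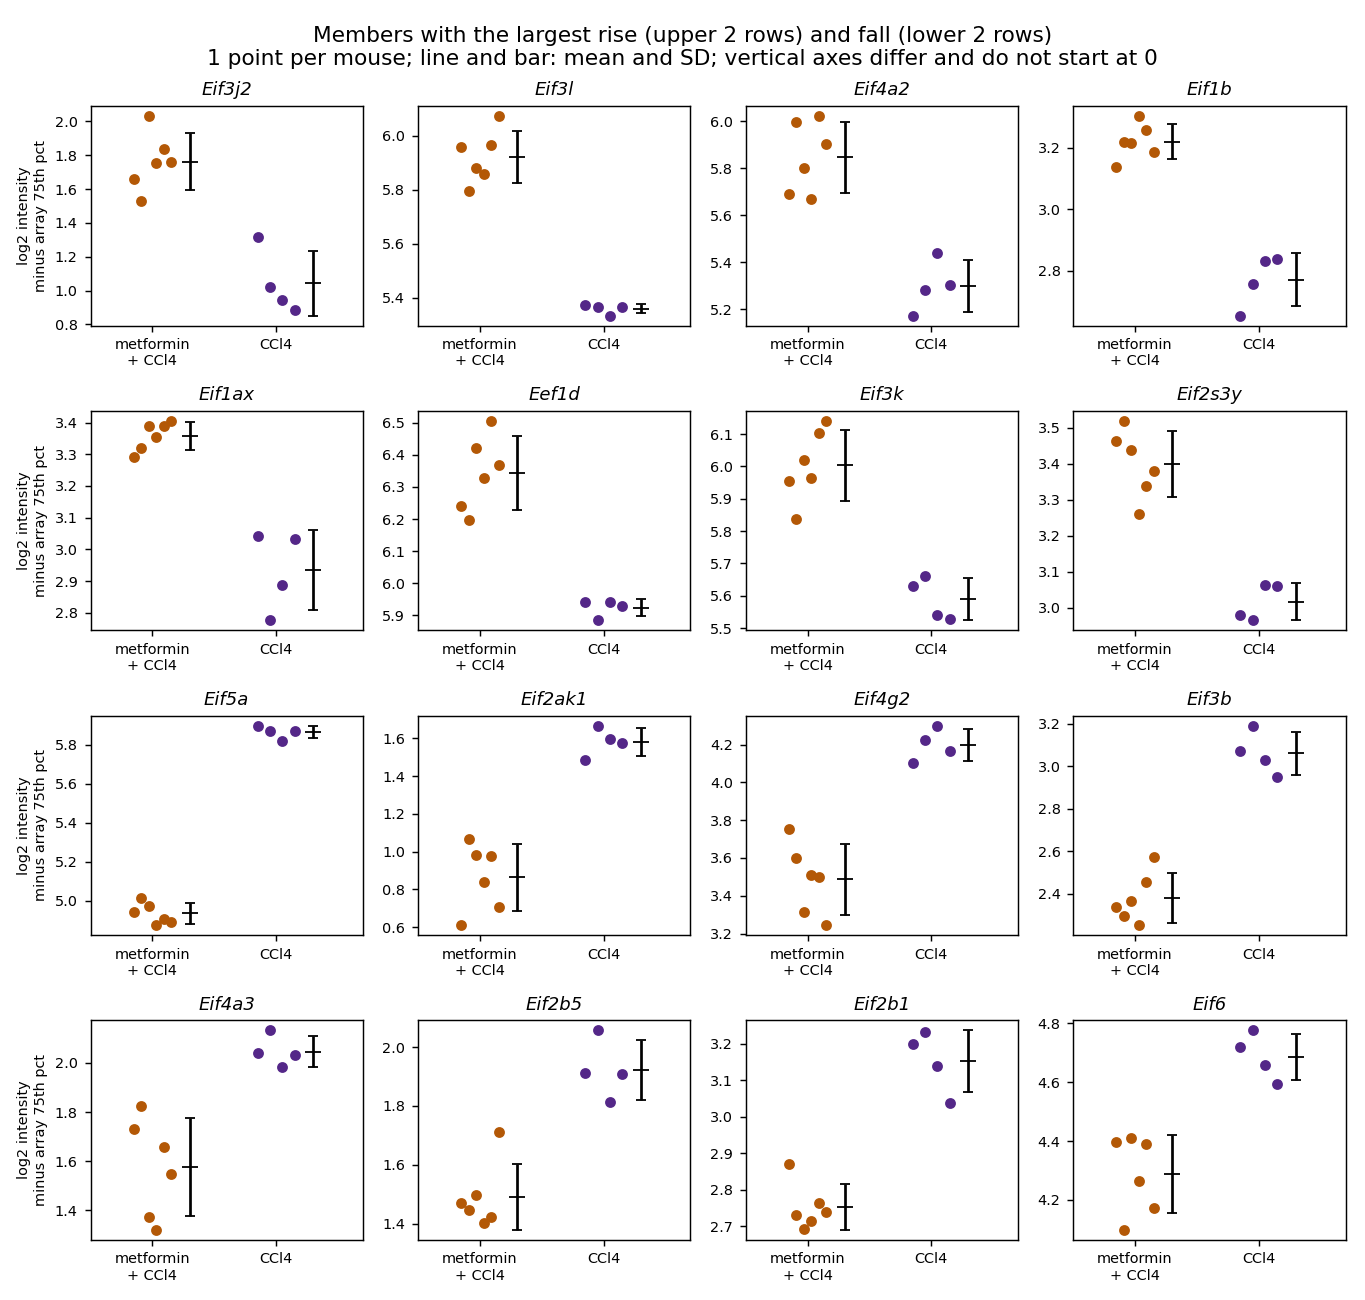
Level in each mouse of the 8 called members with the largest rise (upper 2 rows) and the 8 with the largest fall (lower 2 rows) among those whose groups do not overlap, as log2 intensity minus the array's 75th percentile. Metformin plus CCl4 mice (n = 6) are on the left and CCl4 mice (n = 4) on the right of each panel, with mean and SD beside them, and the vertical axes differ. Eif5a shows the widest gap, between 5.02 in the highest metformin mouse and 5.82 in the lowest CCl4 mouse.

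The largest change of all members was the fall of Eif5a, which encodes the hypusine-bearing factor that helps ribosomes past proline stretches and in termination. Eif5a had levels of 4.88 at the lowest, 4.93 at the median and 5.02 at the highest with metformin plus CCl4, against 5.90, 5.87, 5.82 and 5.87 with CCl4. Both groups were tight and far apart. The log2 change was -0.93 ± 0.08, or 1.91-fold lower (limma adjusted p = 1.4e-04). It stayed between -1.49 and -0.88 and kept its call under all alternatives tried. Its paralogue Eif5a2 ran from -0.55 through -0.17 to 0.04 with metformin, against -0.18, -0.28, -0.37 and -0.65 with CCl4. These ranges overlapped, with a change of 0.12 and a 95% interval of -0.22 to 0.46.

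Eif6 keeps the large ribosomal subunit from joining too early. It had levels of 4.10 at the lowest, 4.33 at the median and 4.41 at the highest with metformin plus CCl4, against 4.72, 4.78, 4.66 and 4.59 with CCl4. The groups were apart, and the change was -0.40 ± 0.10 (limma adjusted p = 0.021), with -0.48 from its second probe. The call was lost without CCl4 mouse 1 (adjusted p = 0.058) or mouse 2 (adjusted p = 0.068), and with normexp background correction, which gave -0.27 (adjusted p = 0.095). Eif5, the factor that makes eIF2 hydrolyse its GTP, had 0.03, while its second probe gave 0.45 (limma adjusted p = 0.016). Eif5b, needed for subunit joining, had 0.25 ± 0.20 and was not called.

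Among the eEF1 genes, Eef1d was higher and Eef1g lower with metformin, and Eef1a1 was not called. Eef1a1, which delivers aminoacyl-tRNA, had levels of 8.18 at the lowest, 8.29 at the median and 8.47 at the highest with metformin plus CCl4, against 8.23, 8.27, 8.43 and 8.19 with CCl4. The ranges nearly coincided, and the change was 0.02 with a 95% interval of -0.20 to 0.24. Eef1d, an exchange subunit gene, ran from 6.20 through 6.35 to 6.51 with metformin, against 5.94, 5.88, 5.94 and 5.93 with CCl4. All metformin mice were above, with a change of 0.42 ± 0.10 (limma adjusted p = 0.011). Eef1b2, the other exchange subunit gene, had 0.28 with adjusted p = 0.066, and its groups did not overlap either. Eef1g, the structural gamma subunit gene, changed by -0.32 (limma adjusted p = 0.046). That call was lost without any 1 of 8 mice, with adjusted p up to 0.12 without CCl4 mouse 3. The second Eef1g probe gave -0.20 and was not called (limma adjusted p = 0.24). Eef1e1, a scaffold protein of the tRNA synthetases, had -0.16.

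Eef1a2, the muscle and neuron form, had levels of -6.70 at the lowest, -6.52 at the median and -6.09 at the highest with metformin plus CCl4, against -6.79, -5.47, -6.78 and -6.37 with CCl4. All of these were below background, as were 4 of 5 skeletal muscle markers on all arrays. Of 4 neuron markers, none was below background on all arrays, and Syt1 was called higher, with a change of 0.79 (limma adjusted p = 0.0035). Snap25, Tubb3 and Rbfox3 were not called and went both ways, with changes of -0.97, 0.62 and 0.23.

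Eef2, the translocase, ran from 7.15 through 7.25 to 7.45 with metformin plus CCl4, against 7.56, 7.58, 7.53 and 7.55 with CCl4. The groups did not overlap, yet the change of -0.30 ± 0.10 just missed the threshold (limma adjusted p = 0.051). It passed in 7 of 20 alternatives, among them without metformin mouse 5 (adjusted p = 0.035) and with quantile normalization, which gave -0.44. The others were median scaling (-0.36), normexp background correction (-0.46), array weights (-0.28), the fit limited to bright features and spike-in scaling (-0.85), which lowered every change. Eef2k, the kinase that switches eEF2 off, ran from -1.81 through -1.64 to -1.19 with metformin, against -1.53, -1.46, -2.14 and -1.39 with CCl4. It overlapped widely, with a change of 0.06 and a 95% interval of -0.35 to 0.47. Of the 5 genes for enzymes that methylate eEF1A or eEF2, Eef1akmt2 was called higher at 0.36 (limma adjusted p = 0.032). Its second probe gave 0.42. The call was lost without any 1 of 7 mice, with adjusted p up to 0.086 without CCl4 mouse 3. The other 4 had changes of 0.10 to 0.36.

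Several members lay near the threshold. In a fit limited to features well above background, 29 members passed, 14 higher and 15 lower, against 44% of those features. The 7 added were Eif1a, Eif2b3, Eif4b, Eif4e2, Eif4ebp1, Eef1b2 and Eef2. The authors' deposited table, a list of quantile-normalized log2 values limited to selected probes, held 6 of the 97 member probes. In all it held 4595 of 55681 probes. Its values come from these same arrays, and its name marks it as a list of differential expression. Large differences may therefore have been a condition of entry, and those below are not separate support. Differences of group means computed from the authors' deposited table were -1.05 for Eif5a, -0.82 for Eif4g2, -0.77 for Eif3b and -0.76 for Eif2ak1. For the second Eif6 probe the authors' deposited table gave -0.59, and for Eif3j2 it gave 0.66.

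The log2 ratio of paralogues was taken within each array for 13 pairs. The pairs were chosen after their values were seen, so the ratios are a description and were not tested. A ratio within an array is untouched by scaling each array to 1 value, but not by quantile normalization. In 5 of the 13 pairs the groups did not overlap, beside 32.7% of single bright features. Each of these 5 pairs holds a member called above whose own groups did not overlap. The Eif5a2 to Eif5a ratio was 1.05 log2 units higher with metformin, from -5.57 to -4.87 with metformin plus CCl4 and from -6.52 to -6.07 with CCl4. Eif3j2 to Eif3j1 was 0.86 higher, Eif1ax to Eif1a 0.84 higher and Eif2s3y to Eif2s3x 0.34 higher. Eif4a3 to Eif4a1 moved the other way, by -0.61. The 2 largest shifts among overlapping pairs were those of Eif4ebp3 to Eif4ebp1 (1.08) and Eif4ebp2 to Eif4ebp1 (1.03). Probe sequences were not used here, so binding of a probe to its paralogue's RNA was not tested.

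**Figure D4:**
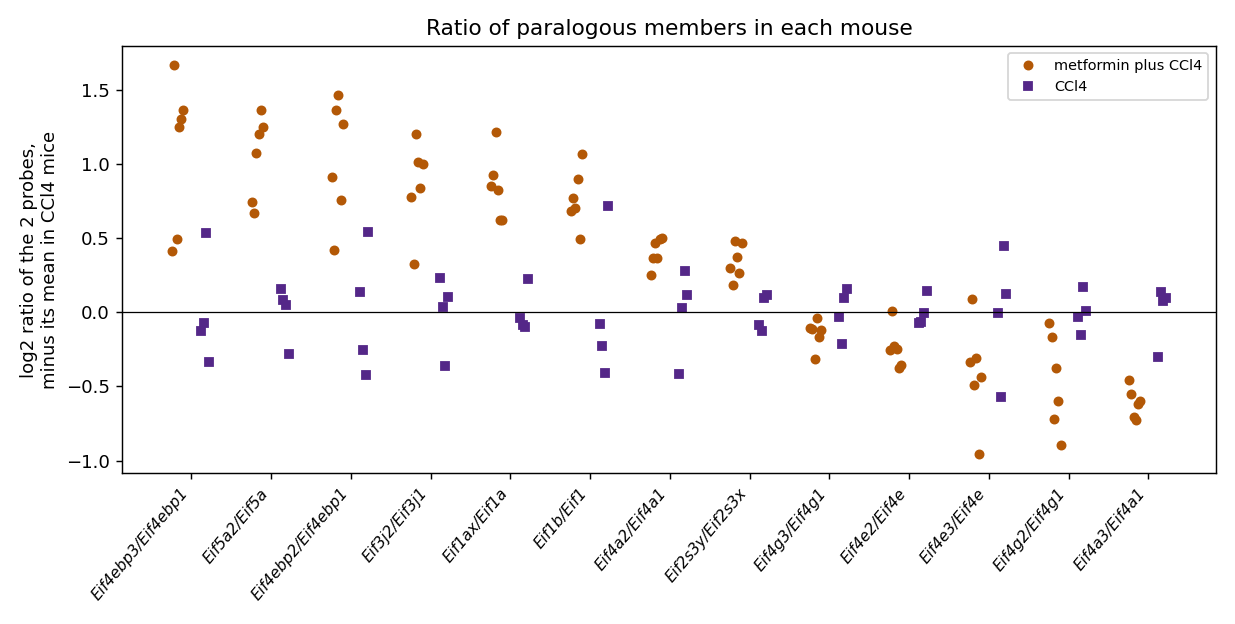
Log2 ratio of 2 paralogous members in each mouse, with the mean of the CCl4 mice subtracted, for 13 pairs ordered by their change. Metformin plus CCl4 mice (circles, n = 6) are left of CCl4 mice (squares, n = 4) in each pair. The groups are apart for Eif5a2/Eif5a, Eif3j2/Eif3j1, Eif1ax/Eif1a, Eif2s3y/Eif2s3x and Eif4a3/Eif4a1.

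Further genes of translation without these symbols were read from 5 lists, with 25 of 69 measured genes called in all, beside 35.4% of bright features called, 22.2% higher and 13.2% lower. In the list of initiation partners, 5 of 21 were higher, 4 lower and 12 neither. Gigyf2, a partner of the repressor Eif4e2, was higher by 0.99 ± 0.10 (limma adjusted p = 2.1e-04), with levels of 3.08 to 3.44 with metformin plus CCl4 and 2.12 to 2.29 with CCl4. Mcts1, a re-initiation factor, was higher by 0.72. The poly(A)-binding protein genes Pabpc4 and Pabpc1, whose products bind eIF4G, had changes of -0.83 and -0.44 and were called lower. Their partners Paip1 and Paip2b had changes of 0.57 and -0.42, both called. Gigyf2 was the 1 gene of these lists besides Dph2 to stay called higher with spike-in scaling, at 0.44 (adjusted p = 0.039).

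For release and recycling, Pelo, a ribosome rescue factor, was higher by 0.56, Abce1, which splits ribosomes, was lower with a change of -0.33, and 4 of the 6 were not called. Among 11 genes for enzymes that modify the factors and for selenocysteine factors, 2 were higher and 9 not called. Dph2 and Dph5 act in making diphthamide, the modified histidine of eEF2, and were higher by 1.38 ± 0.21 (limma adjusted p = 0.0012) and 0.59. Dhps and Dohh, which make the hypusine of eIF5A, had 0.19 and 0.29 and were not called, beside the fall of Eif5a. Mitochondrial factors were mixed, with 3 of 10 higher (Mtif3 0.94, Mtif2 0.51 and Gfm1 0.48) and 3 lower (Guf1 -0.58, Tufm -0.46 and Tsfm -0.41). For cytosolic tRNA synthetases and their scaffolds, limma called 0 of 21 higher (3 at an unadjusted p under 0.05), 6 lower and 15 neither. The largest changes among the 6 were those of Vars (-0.99), Hars (-0.92) and Rars (-0.69). The medians of the 5 lists lay between -0.15 and 0.20, against 0.11 for bright features.

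**Figure D5:**
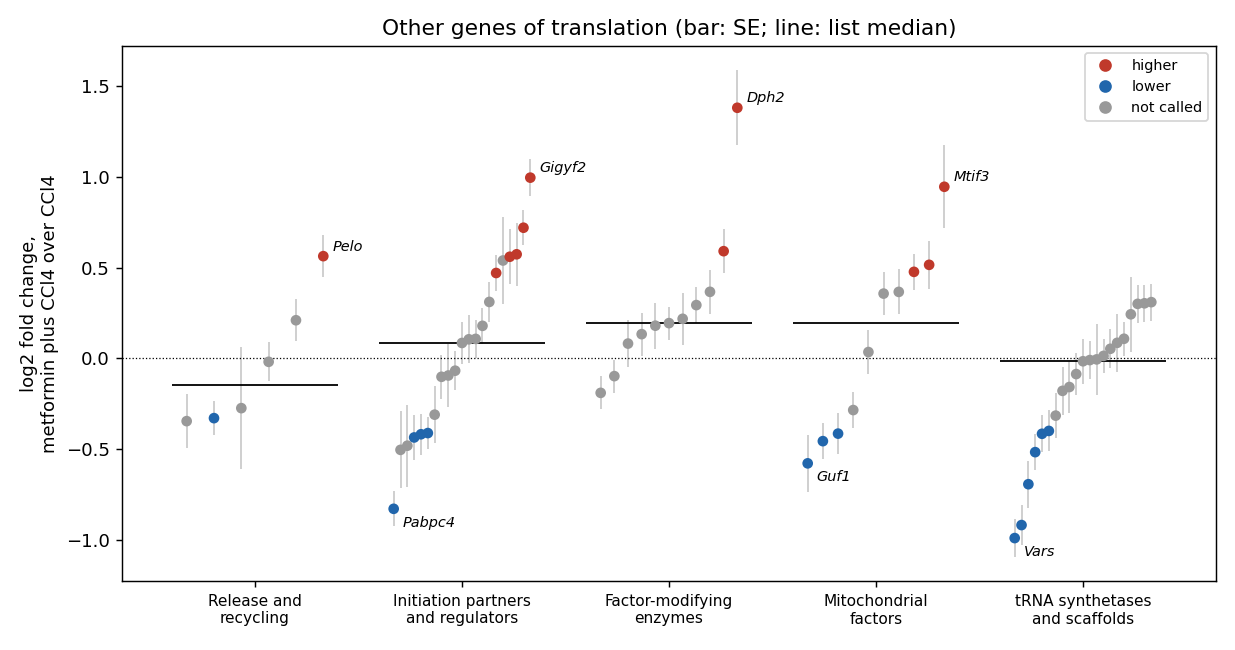
Log2 change, metformin plus CCl4 over CCl4, of the genes of 5 further lists of translation genes (points, with SE as bars and list medians as lines). The tRNA synthetase list holds 6 blue points, called lower, and 0 red points, and Dph2 at 1.38 is the highest point.

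Markers of some other liver cells were lower with metformin, beside 13.2% of the bright features. Of 6 macrophage markers 4 were lower (Cd68, C1qa, C1qb and Cd14), with median change -0.77, and of 6 neutrophil markers 4 were lower, with median change -1.41. The summed linear signals of these lists were 33.0 to 62.9 with metformin plus CCl4 and 53.9 to 64.5 with CCl4 for macrophages, and 9.19 to 43.1 with metformin plus CCl4 and 32.9 to 67.5 with CCl4 for neutrophils. Stellate cell markers were lower for 3 of 5 genes, and hepatocyte markers for 1 of 6 (Apoa1, -0.43). The stellate sums did not overlap, at 2.40 to 3.59 with metformin plus CCl4 and 4.15 to 6.40 with CCl4. Nor did the erythroid sums, at 148 to 259 with metformin plus CCl4 and 312 to 504 with CCl4. The sums of all other marker lists overlapped between the groups. Among endothelial markers 2 of 5 were lower, and of 5 bile duct markers 2 were lower and 1 higher. Of 5 T cell and 4 B cell markers limma called 0, and 0 had an unadjusted p under 0.05. Their part in the changes of the members was not tested.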

How the data were processed

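Per the file headers, Agilent Feature Extraction 10.7.3.1 had turned each scan into linear intensity values per spot, on a grid annotated to mm9, and had subtracted the background without scaling arrays to each other. Each array took 100 ng of RNA whose integrity number exceeded 8, per the labels' protocols. A second file the authors deposited gives log2 values of selected probes, quantile-normalized per its header. Its columns followed the scanner values of their own arrays across probes (lowest Pearson r 0.9997).

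Control spots and irregular spots were left out. The log2 of the processed intensity minus the array's 75th percentile was taken and spots of a probe were averaged. Accessions were matched to the RefSeq gene table (GRCm38.p6, names only), which named 28664 of 55681 probes. The 27017 unnamed probes each stayed a feature, and the brightest probe over the 10 arrays stood for a gene. Scans had 75th percentiles of 237 to 363 intensity units, with 51.2% to 54.9% of probes well above background and 0 saturated. Precision is limited by there being only 6 and 4 arrays.

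The groups were compared with limma 3.58.1 in R 4.3.3, two-sided, without covariates, over 48630 features, and the script was tested on simulated data. Members and lists were chosen with earlier results of these data known. Values in every mouse are given for the 8 largest rises and 8 largest falls among called members whose groups do not overlap, and for further members chosen by role. Alternatives were quantile, median and spike-in scaling, background correction by normexp (offset 50, on median signals), a filter keeping probes well above background on 75% of the arrays of a group, the mean of a gene's probes, array weights, slide row, leaving out each mouse, and the mouse number as a block. Same-numbered mice did not deviate together (correlations -0.15, -0.11, 0.08 and -0.01), so the numbers were not taken as pairs. Mtrfr and Nars1 of the lists found no match. 1 gene of the marker lists is not reported here.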

Additional observations from a re-analysis of the deposited data

Results flagged for a closer look

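Members named with per-mouse values were checked for a mouse far from the rest of its group, by the gap to the nearest mouse over the whole range of the group. Of 62 groups checked, 3 held such a mouse, and chance gives about 1 in 20. Eif2b5 in metformin mouse 6 was 1.71, against 1.496 in the next metformin mouse, a gap of 0.697 of the range. Eif4e in CCl4 mouse 4 was 1.97, against 2.22 in the next CCl4 mouse, a gap of 0.871 of the range. Eif4g1 in CCl4 mouse 2 was 6.11, against 5.89 in the next CCl4 mouse, a gap of 0.883 of the range.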

How the results depend on the processing

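All 22 called members kept their direction under the alternatives tried except spike-in scaling, which moved the zero point. There Eif1b was -0.11, Eif1ax -0.13, Eif2s3y -0.17, Eif3k -0.14, Eif4a2 -0.0093, Eef1d -0.14, Eif3h -0.21, Eif3m -0.25 and Eef1akmt2 -0.19, none of them called, while Eif4e (-0.55), Eif5a2 (-0.43) and Eef1a1 (-0.53) were called lower. The count of called members was 40 with spike-in scaling, 32 (11 higher and 21 lower) with quantile normalization, 3 in slide row 1 alone, which has fewer mice, and 14 to 23 with 1 mouse left out. Calls in the 5 lists (25) were 7 in slide row 1 alone and 16 to 25 with 1 mouse left out, the lowest without CCl4 mouse 3. With the mouse number as a block (replicates 1 to 4 shared by both groups), 2 members (Eif3b and Eif5a) and 5 list genes were called, and the members' median was -0.017. That median was -0.063 with quantile normalization, -0.044 with median scaling and -0.53 with spike-in scaling, against 0.022 here. For quantile and median scaling, the median and the called share of all features are not given. A shift of the members there cannot be told apart from a shift of all features. The calls of Eif3h, Eif3m, Eif4g3, Eef1g, Eef1akmt2 and Eif4ebp2 depended most often on a single mouse. Signal over background limited 2 members, Eef1a2 and Eif4e1b.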
